A study of Mus musculus with 6 samples.

Results

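The genes described here move calcium during the contraction of skeletal muscle, and 36 of them were listed, with Cacna2d4 named beforehand as a strongly lower gene. They cover the voltage sensor, the calcium release channel, the membrane junctions, the calcium stores and buffers, the calcium pumps with their small inhibitors, store-operated calcium entry, and calmodulin with its kinases. All 36 were found by gene symbol among the 49315 genes of the count table, and all 36 passed the filter on low counts, which left 15847 genes for testing. RNA came from gastrocnemius muscle of male C57BL6J mice, given an adeno-associated virus (AAV9) by injection when 5 months old and examined 5 months later. AAV9-HSA-CAAHR carried a constitutively active aryl hydrocarbon receptor (AHR), a transcription factor whose ligand-binding part had been removed so that it acts without ligand, and AAV9-HSA-GFP carried a green fluorescent protein. In both, the promoter was that of human skeletal actin (HSA), which drives expression in muscle fibres, and the control group thus also received virus. The 3 AAV9-HSA-CAAHR libraries are replicates 31, 34 and 36 (hereafter CAAHR), and the 3 AAV9-HSA-GFP libraries are replicates 42, 43 and 46 (hereafter GFP). Nothing in the labels ties a library to its own animal, so p-values measure the spread between these libraries.

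In a muscle fibre, an action potential runs along the transverse tubules, where the dihydropyridine receptor senses the voltage and opens the ryanodine receptor in the facing membrane of the sarcoplasmic reticulum. Calcium leaves the store, binds troponin and starts contraction, and the SERCA pumps then return it to the store, where calsequestrin binds it. Fast and slow fibres differ in the forms of several of these proteins. Fast fibres rely on the pump encoded by Atp2a1 and the calsequestrin encoded by Casq1, and slow fibres and heart on the pump encoded by Atp2a2. Casq2 encodes the calsequestrin of heart, which is also found in slow fibres. The gastrocnemius of the mouse is a mainly fast muscle.

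Library totals ranged from 43432994 to 58825752 counts. Ahr was at 9.96, 22.8 and 17.3 CPM (counts scaled to library size by the TMM method) in CAAHR replicates 31, 34 and 36. It was at 1.87 to 2.55 CPM in the GFP libraries, and counts of delivered and endogenous transcripts cannot be told apart. Cyp1a1, the standard AHR target, was at 1230, 1680 and 1517 CPM in CAAHR replicates 31, 34 and 36 against 5.85 to 7.73 CPM in the GFP libraries. Both genes were thus highest in CAAHR replicate 34 and, within the CAAHR group, lowest in replicate 31. One library stood apart in the CAAHR group: the summed level of 8 slow-fibre markers was 2026 and 1932 CPM in CAAHR replicates 31 and 36 but 436 CPM in replicate 34, against 144 to 339 CPM in the GFP libraries. Summed fast-fibre markers (9 genes) were at 111320 to 150940 CPM in the CAAHR libraries and 165490 to 167760 CPM in the GFP libraries. Of these 9 genes, 7 had negative log2 fold changes. Myh1 and Myh2 had positive ones (0.997 and 1.381), with overlapping groups. The fast-fibre sum far exceeded the slow-fibre sum in every library, as in a mainly fast muscle, but these markers do not single out the gastrocnemius. Of 9 cardiomyocyte markers, Nppb, Myl7 and Mybpc3 were at 3 counts or fewer in every library, and the list summed to 11.4 to 17.2 CPM in CAAHR and 13.4 to 14.2 CPM in GFP.

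Among the 36 calcium genes, 7 had an adjusted p under 0.05 (edgeR quasi-likelihood test, adjusted by Benjamini-Hochberg over all tested genes), which is 19.4% of them against 7.6% of all genes tested. Higher in CAAHR muscle were Pln and Stim1 (2 of 36, against 3.04% of all genes). Lower were Cacna2d4, Cacng6, Ryr3, Asph and Camk2d (5 of 36, against 4.57% of all genes). Only Cacna2d4, Ryr3 and Pln were called with a change over 2-fold, where the background was 3.48%. An unadjusted p under 0.05 was reached by 16 genes, 8 higher and 8 lower (44.4%, against 23.9% of all genes). The groups did not overlap for 15 of the 36 genes (41.7%, against 29.9% of all genes), 7 with every CAAHR library higher and 8 with every CAAHR library lower. Since the lower level of Cacna2d4 was known when the list was made, the counts without it are also given: 6 of 35 genes were called (17.1%), 4 of them lower, 2 called genes changed over 2-fold, and the groups did not overlap for 14. The median log2 fold change of the 36 genes was 0.002, against 0.009 for all tested genes, and 18 values were positive and 18 negative. The list as a whole therefore lay at the centre of all genes, with a few genes far out on either side.

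The balance of higher and lower calls depended on the scaling. With library size only it was 5 higher and 4 lower among the 36 genes, and 876 higher and 600 lower among all genes, against 481 and 724 with TMM. With DESeq2 size factors it was 1 and 5 among the 36 genes, with 467 higher and 757 lower among all genes. With upper quartile scaling it was also 1 and 5, with 358 higher and 990 lower among all genes. DESeq2 as the test called 5 higher and 6 lower of the 36, and edgeR without robust estimation 4 and 4. The DESeq2 test also called more genes in all, as given with the processing below. A minimum of 10 counts in every library left 0 higher and 5 lower of the 36, with 405 higher and 611 lower among all genes.

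Leaving out 1 library moved the number of called calcium genes from 7 to between 2 and 12. It was 12 without CAAHR replicate 34, 4 without CAAHR replicate 31, and 2 without CAAHR replicate 36 or without any 1 of the 3 GFP libraries. The number of calls among all genes also moved widely in these fits, as given with the processing below. The range is therefore not read as particular to the calcium genes. Cacna2d4 and Ryr3 were called in each of these 6 fits. With the slow-fibre marker level as a covariate, 2 genes were called, Cacna2d4 (lower) and Stac3 (higher). The summed level of these markers did not overlap between the groups, so this covariate largely follows the group. A call lost in this fit, here or below, therefore does not show a part of the slow-fibre markers.

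**Figure D1:**
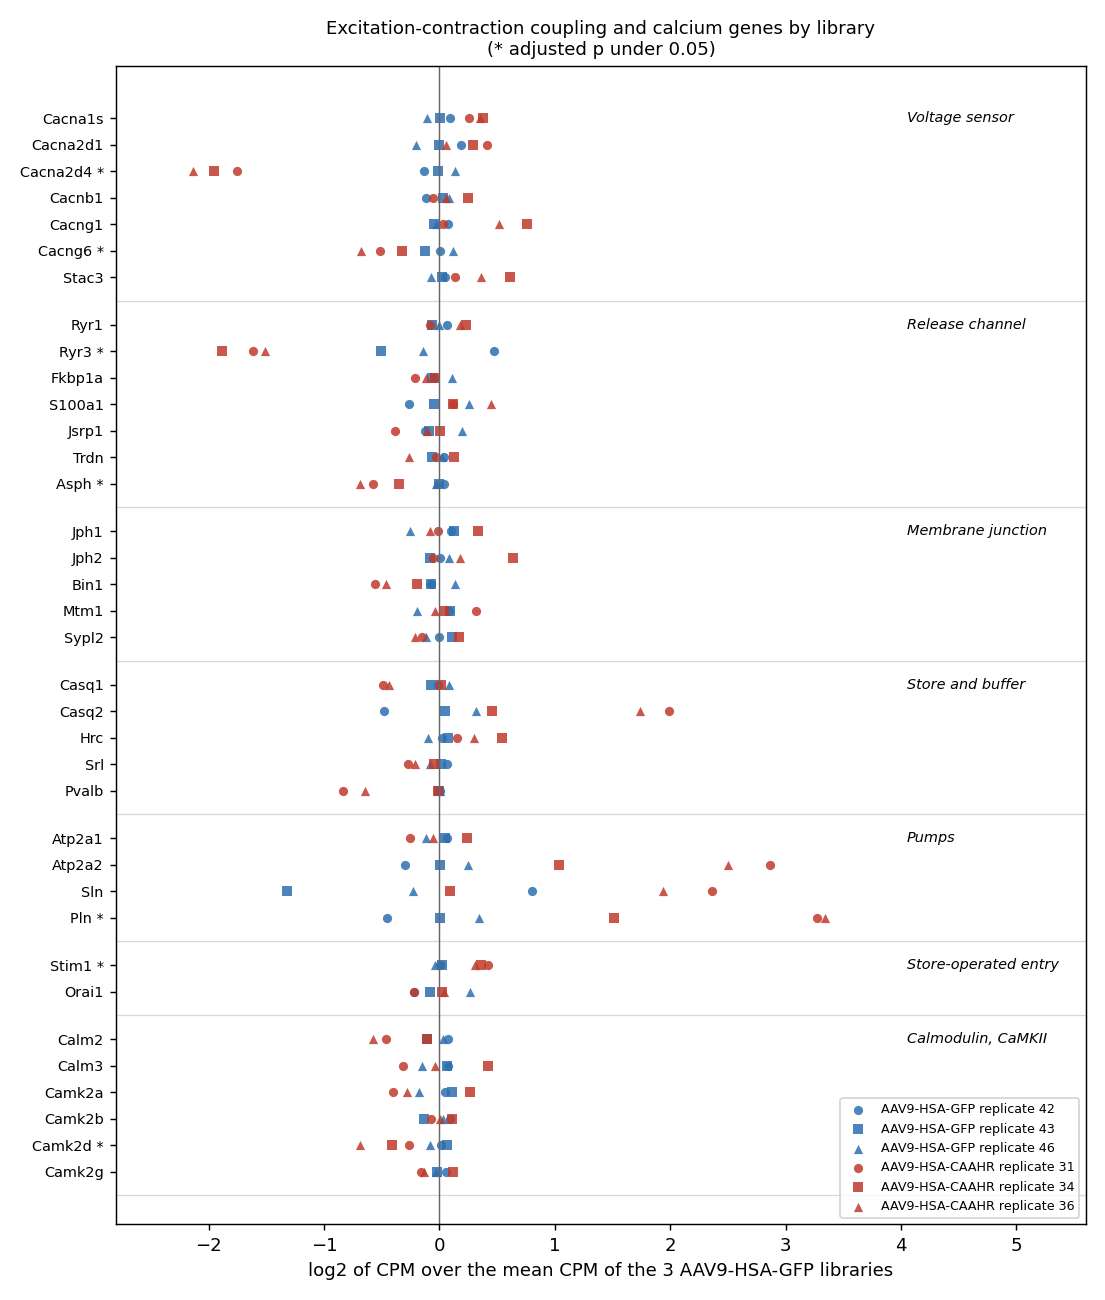
Each row is 1 of the 36 calcium genes, grouped by role, and each point is 1 library, placed by the log2 of its CPM over the mean CPM of the 3 GFP libraries. An asterisk marks an adjusted p under 0.05. Most rows lie within 1 log2 unit of 0, the CAAHR points of Cacna2d4 and Ryr3 lie far to the left, and those of Pln, Atp2a2 and Casq2 lie to the right and far apart from each other.

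Promoter sequence is shown for 3 of the 4 called genes with an entry in the RefSeq promoter table for GRCm38.p6, since AHR binds DNA with its partner ARNT at sites built around the bases GCGTG. Of the 36 genes, 21 had an entry. Cacna2d4, Ryr3 and Asph were not among them. By GENCODE M21 the window of Cacng6 lies within an annotated 5′ untranslated exon and is not printed, that of Camk2d lies in an intron of a longer Camk2d transcript, and those of Stim1 and Pln lie before the gene except for their last few bases. The 250 bases before the annotated start are printed 5′ to 3′ on the strand of the gene, in lower case, with GCGTG or its reverse complement CACGC in capitals. The windows are chr7:102267569-102267818 (plus strand) for Stim1, chr10:53337436-53337685 (plus strand) for Pln, and chr3:126596701-126596950 (plus strand) for Camk2d.
Stim1: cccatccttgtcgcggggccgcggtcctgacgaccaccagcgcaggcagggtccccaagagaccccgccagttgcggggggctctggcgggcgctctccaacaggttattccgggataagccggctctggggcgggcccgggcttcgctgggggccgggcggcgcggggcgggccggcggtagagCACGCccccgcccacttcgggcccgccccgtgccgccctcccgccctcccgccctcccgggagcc
Pln: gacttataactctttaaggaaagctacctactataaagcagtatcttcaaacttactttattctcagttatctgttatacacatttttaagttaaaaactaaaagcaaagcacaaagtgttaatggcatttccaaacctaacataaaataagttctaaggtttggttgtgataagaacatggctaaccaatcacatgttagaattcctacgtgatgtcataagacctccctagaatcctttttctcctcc
Camk2d: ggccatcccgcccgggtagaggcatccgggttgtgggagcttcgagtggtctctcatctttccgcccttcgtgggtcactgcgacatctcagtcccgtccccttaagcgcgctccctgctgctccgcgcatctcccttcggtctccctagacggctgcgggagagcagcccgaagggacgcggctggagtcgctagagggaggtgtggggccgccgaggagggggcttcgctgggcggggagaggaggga
The window of Stim1 holds 1 match and those of Pln, Cacng6 and Camk2d hold 0. The windows differed in base composition, with 78.4% G or C for Stim1, 68.4% for Camk2d, 52.8% for Cacng6 and 32.8% for Pln. Over the 26 windows of the 21 genes, 11 (42.3%) held the letters on either strand, against 28.2% of 32851 windows of all promoters in the table. These shares were not matched for base composition, which was not measured for all promoters, and some genes have more than 1 window, so no enrichment is read from them. For 23 of the 26 windows, the bases after the start were found in an annotated transcript of the gene. A match is a description of the sequence and not a measured binding site, and a window without a match says only that these letters are not in it.

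The voltage sensor is a calcium channel complex in the transverse tubule, made of the pore Cacna1s, the cytoplasmic subunit Cacnb1, an alpha-2/delta subunit and a gamma subunit, with the adaptor Stac3. Of its 7 genes listed, 2 were called lower and 0 higher (against 4.57% and 3.04% of all genes), and the 2 lower ones were the accessory subunits Cacna2d4 and Cacng6. Since Cacna2d4 was known to be lower when the genes were listed, this count is not independent of the choice of genes. Cacna2d4 (ENSMUSG00000041460, chromosome 6, 119236526 to 119352407, GRCm38) encodes an alpha-2/delta subunit better known from photoreceptors. It was at 2.96, 2.59 and 2.28 CPM in CAAHR replicates 31, 34 and 36 and 9.13, 9.97 and 11 CPM in GFP replicates 42, 43 and 46. Every CAAHR library lay far below every GFP library. Cacna2d4 was lower in CAAHR than in GFP muscle by 3.85-fold, with a log2 fold change of -1.94 ± 0.15 (SE, adjusted p = 0.000211). It remained called in all 6 fits lacking 1 library (adjusted p 0.000131 to 0.00247) and in each of 9 other settings. This difference was already known when the genes were listed, so its p-value is not independent evidence. In bulk muscle, fewer cells of a type and less RNA per cell cannot be told apart, here or for the genes that follow. Several marker lists of other cells were lower in CAAHR than in GFP muscle without overlap in their summed CPM, and Cacna2d4, Ryr3, Gem, Rrad and Nfatc2, all genes of low level, were lower beside them. The sums were 1.95 to 2.47 against 6.42 to 40.3 for 8 lymphocyte markers, 2.15 to 3.10 against 6.25 to 15.5 for 6 neutrophil markers (Ly6g and Mpo at the floor), 24.1 to 41.7 against 48.8 to 104.7 for 8 macrophage markers and 3.52 to 20.7 against 35.3 to 96.4 for 5 adipocyte markers. Of the markers tested, 1 of 6, 3 of 4, 0 of 8 and 2 of 5 were called, all lower, against 4.57% of all genes called lower. The paper reports that the GFP virus itself raised an immune response in the muscle. By its quantitative PCR, selected immune genes were not lower in CAAHR-treated mice than in mice without virus. No muscle without virus was sequenced here, so a lower level in CAAHR and a raised level in GFP cannot be told apart. The part of these cells in the results was not tested.

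The main alpha-2/delta subunit of skeletal muscle is encoded by Cacna2d1. It was at 346, 319 and 272 CPM in the CAAHR libraries and 296, 259.5 and 226 CPM in the GFP libraries, with overlapping groups and a log2 fold change of 0.26 ± 0.13 (SE, adjusted p = 0.276). Per kilobase of exon, the level of Cacna2d1 was 21 ± 2.82 RPKM (CPM per kilobase, SD, n = 3) and that of Cacna2d4 1.06 ± 0.0977 RPKM in GFP muscle, so Cacna2d4 was a small part of the alpha-2/delta transcripts. In CAAHR muscle the level of Cacna2d4 was 0.275 ± 0.0362 RPKM.

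Cacng6 (ENSMUSG00000078815, chromosome 7, 3424195 to 3435667) encodes a gamma subunit. It was at 114, 130.3 and 102 CPM in CAAHR replicates 31, 34 and 36 and 164, 149.9 and 177 CPM in GFP replicates 42, 43 and 46. The highest CAAHR value stayed below the lowest GFP value. Cacng6 was lower in CAAHR muscle by a log2 fold change of -0.50 ± 0.12 (SE, adjusted p = 0.0321). The call was lost without CAAHR replicate 31 or 36 or any 1 GFP library, with adjusted p-values over the 6 fits of 0.00997 to 0.126, and also with the slow-fibre covariate. Cacng1, the gamma subunit that copurifies with the skeletal channel, was at 399, 661 and 559.7 CPM in the CAAHR libraries and 412, 378 and 382 CPM in the GFP libraries. Its GFP values sat close together, CAAHR replicate 34 was the highest, and the groups overlapped. Its log2 fold change was 0.47 ± 0.17 (SE) with an adjusted p of 0.129, so Cacng1 was not called.

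Cacna1s, the pore and voltage sensor itself, was at 1481, 1609 and 1580.3 CPM in the CAAHR libraries and 1323, 1243 and 1149 CPM in the GFP libraries, and Stac3, which ties it to the release channel, was at 258, 359 and 301 CPM in the CAAHR libraries and 243, 237 and 223 CPM in the GFP libraries. For both genes every CAAHR library lay above every GFP library, but neither passed the adjusted threshold. The log2 fold change of Cacna1s was 0.33 ± 0.11 (SE, adjusted p = 0.108) and that of Stac3 was 0.38 ± 0.13 (SE, adjusted p = 0.106). Stac3 was called with the slow-fibre covariate (log2 fold change 0.79, adjusted p = 0.0344). Cacnb1, which chaperones the pore to the membrane, had a log2 fold change of 0.09 ± 0.11 (SE, adjusted p = 0.701).

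**Figure D2:**
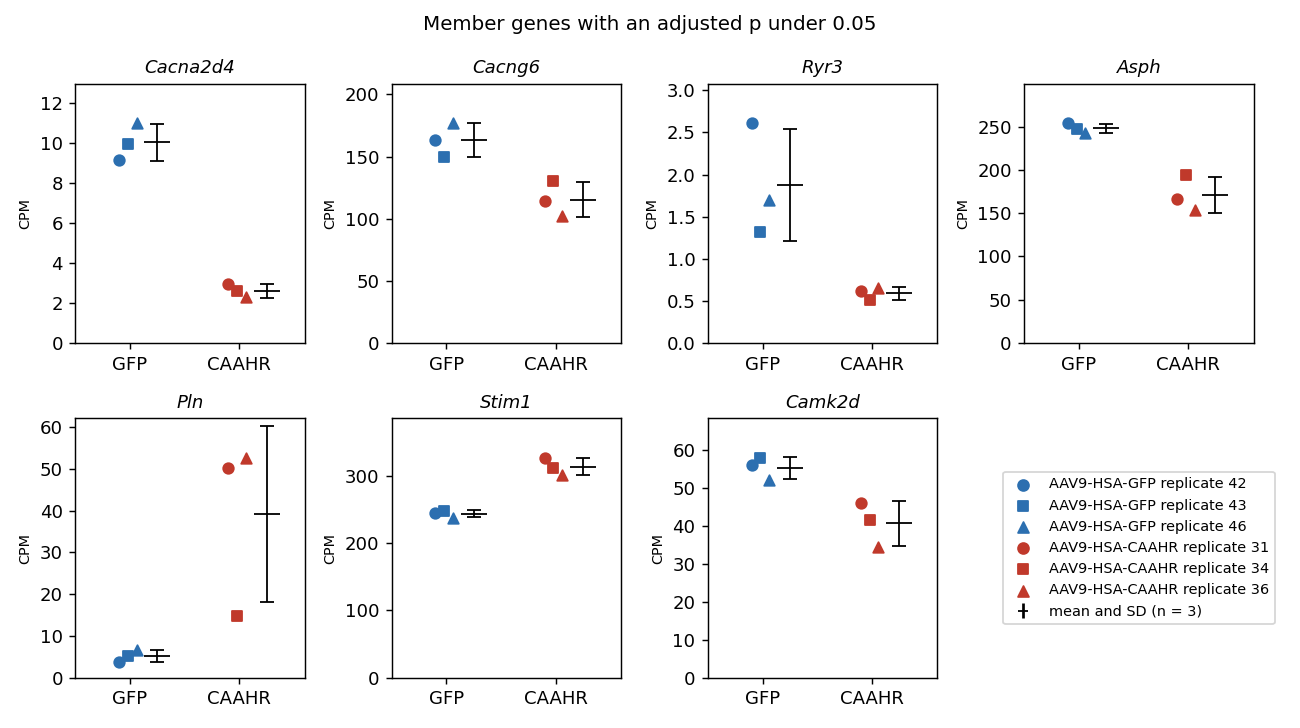
Each panel shows 1 of the 7 called genes, with CPM on a linear axis from 0, 1 point per library and a line at the mean of each group of 3. The CAAHR and GFP points do not overlap in any panel, and in the Pln panel CAAHR replicate 34, at 14.8 CPM, lies well below the other 2 CAAHR libraries.

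The release channel group holds the ryanodine receptors and the proteins attached to them, and 2 of its 7 genes were called lower, against 4.57% of all genes. Ryr1, the release channel of adult skeletal muscle, was at 4696, 5800.3 and 5594 CPM in the CAAHR libraries and 5177, 4754 and 4947 CPM in the GFP libraries, with a log2 fold change of 0.11 ± 0.13 (SE, adjusted p = 0.662). Ryr3 (ENSMUSG00000057378, chromosome 2, 112631355 to 113217096), a form found in young and in some adult muscles, was at 0.613, 0.507 and 0.656 CPM in CAAHR replicates 31, 34 and 36 and 2.61, 1.32 and 1.70 CPM in GFP replicates 42, 43 and 46. These are low values, from 29 to 40 counts per library in CAAHR and 55 to 126 counts in GFP, but the groups did not overlap. Ryr3 was lower by a log2 fold change of -1.66 ± 0.30 (SE, adjusted p = 0.0114), and leaving out 1 library gave adjusted p-values of 0.00975 to 0.0439. It was not called with the slow-fibre covariate, where the log2 fold change was -1.65 and the adjusted p 0.212. Per length, the level of Ryr1 in GFP muscle was 227 ± 9.70 RPKM and that of Ryr3 0.0989 ± 0.0349 RPKM. Exons of Ryr3 overlap those of Aven on the opposite strand, and the methods state that counting used the strand where the library kept it, without saying whether these libraries did. Aven was at 12.1, 15.1 and 12.2 CPM in the CAAHR libraries and 16.8, 14.5 and 16.9 CPM in the GFP libraries.

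Asph (ENSMUSG00000028207, chromosome 4, 9448069 to 9669344) encodes aspartate beta-hydroxylase and, from the same locus, junctin and junctate, proteins of the reticulum membrane, and the counts do not separate these products. It was at 166, 194 and 153 CPM in CAAHR replicates 31, 34 and 36 and 254, 247 and 243 CPM in GFP replicates 42, 43 and 46. The GFP values were nearly equal, and all CAAHR values lay below them. Asph was lower by a log2 fold change of -0.53 ± 0.11 (SE, adjusted p = 0.0205). The call was lost without CAAHR replicate 31 or 36 or any 1 GFP library, with adjusted p-values over the 6 fits of 0.00418 to 0.0854, and also with the slow-fibre covariate.

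The other 4 genes of the release channel group were not called and their groups overlapped. Trdn, the calsequestrin anchor triadin, had a log2 fold change of -0.05 ± 0.13 (SE). For Jsrp1, a junctional protein that binds the voltage sensor, it was -0.15 ± 0.14 (SE). Fkbp1a, which stabilises the closed channel, had -0.12 ± 0.10 (SE), and S100a1, a calcium sensor that binds the channel, had 0.23 ± 0.15 (SE). Their adjusted p-values ran from 0.379 to 0.867.

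Of the 5 membrane junction genes, 0 were called, and 1 had an unadjusted p under 0.05, against 23.9% of all genes. That gene was Bin1, which shapes the transverse tubules. It was at 780.4, 1006 and 836 CPM in the CAAHR libraries and 1098, 1094 and 1268 CPM in the GFP libraries, every CAAHR library below every GFP library, with a log2 fold change of -0.40 ± 0.13 (SE, adjusted p = 0.0992). The long noncoding RNA A830052D11Rik, on the opposite strand and overlapping exons of Bin1, was called lower with a log2 fold change of -1.10 (adjusted p = 0.00998). The junctophilins Jph1 and Jph2, which hold both membranes together, had log2 fold changes of 0.09 ± 0.15 (SE) and 0.28 ± 0.17 (SE). Mtm1, a phosphatase of phosphoinositides, and Sypl2, a triad membrane protein, had 0.12 ± 0.13 (SE) and -0.06 ± 0.13 (SE).

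The store and buffer group had 0 called genes of 5, against 7.6% of all genes, while 3 had an unadjusted p under 0.05, against 23.9% of all genes. Casq1 was at 1957, 2763 and 2024 CPM in the CAAHR libraries and 2718, 2611 and 2906 CPM in the GFP libraries, with a log2 fold change of -0.29 ± 0.15 (SE, adjusted p = 0.288) and overlapping groups. Casq2 (ENSMUSG00000027861, chromosome 3, 102086415 to 102146514), the cardiac calsequestrin also found in slow fibres, was at 46.1, 15.9 and 38.7 CPM in CAAHR replicates 31, 34 and 36 and 8.28, 12.0 and 14.5 CPM in GFP replicates 42, 43 and 46. All 3 CAAHR values were above all GFP values, but replicate 34 was only just so. The log2 fold change of Casq2 was 1.53 ± 0.45 (SE) with an adjusted p of 0.113, which missed the threshold, while DESeq2 (0.0221), edgeR without robust estimation (0.0355) and the fit without CAAHR replicate 34 called it. Per length, Casq2 made up 1.65, 0.409 and 1.35% of the summed level of Casq1 and Casq2 in CAAHR replicates 31, 34 and 36 and 0.217, 0.327 and 0.354% in the GFP libraries. The means were 1.14% ± 0.647 and 0.299% ± 0.0726 (SD, n = 3), and a two-sided exact permutation test gave p = 0.1, the smallest it can give with 3 libraries against 3. Casq1 thus made up nearly all calsequestrin transcripts in both groups.

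Hrc, a histidine-rich calcium-binding protein of the store, was at 899, 1179 and 997 CPM in the CAAHR libraries and 821, 849 and 753 CPM in the GFP libraries, without overlap, at a log2 fold change of 0.34 ± 0.13 (SE, adjusted p = 0.141). Pvalb, the parvalbumin that buffers calcium in fast fibres, was at 4374, 7715 and 4974 CPM in the CAAHR libraries and 7800.5, 7768 and 7814 CPM in the GFP libraries. The GFP libraries were nearly equal, and the CAAHR libraries ranged from just below them in replicate 34 to far below them in replicate 31. Its log2 fold change was -0.46 ± 0.20 (SE), but the adjusted p was 0.205 and Pvalb was not called. Srl, sarcalumenin of the store, had -0.17 ± 0.12 (SE, adjusted p = 0.413).

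The pump group held the largest positive log2 fold changes of the 36 genes, and in the CAAHR libraries these were lowest where the slow-fibre markers were lowest. Pln (ENSMUSG00000038583, chromosome 10, 53337667 to 53345987) encodes phospholamban, an inhibitor of the pump found in slow fibres and heart. It was at 50.1, 14.8 and 52.6 CPM in CAAHR replicates 31, 34 and 36 and 3.79, 5.19 and 6.57 CPM in GFP replicates 42, 43 and 46. Replicate 34 lay well below the other CAAHR libraries and still above every GFP library. Pln was higher by a log2 fold change of 2.92 ± 0.57 (SE, adjusted p = 0.0475). The call was lost without CAAHR replicate 31 or 36 or any 1 GFP library, and the adjusted p over the 6 fits ran from 4.56e-05, without CAAHR replicate 34, to 0.173. The call was also lost with no filter (adjusted p = 0.0972) and with a minimum of 10 counts in every library (0.0507). Its log2 fold change with the slow-fibre covariate was 0.66 and the adjusted p 0.0913. Exons of Pln overlap those of Cep85l on the opposite strand, which was at 9.49, 2.71 and 11.7 CPM in the CAAHR libraries and 3.35, 4.51 and 3.92 CPM in the GFP libraries.

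Atp2a2 (ENSMUSG00000029467, chromosome 5, 122453513 to 122502225), the slow and cardiac SERCA pump, was at 755, 213 and 585 CPM in CAAHR replicates 31, 34 and 36 and 84.3, 104 and 123 CPM in GFP replicates 42, 43 and 46. The groups did not overlap, and replicate 34 was again the lowest CAAHR library. Its log2 fold change was 2.32 ± 0.49 (SE) with an adjusted p of 0.0526, just over the threshold, so Atp2a2 was not called. It was called with DESeq2 (adjusted p = 3.45e-05), with edgeR without robust estimation (0.0105), with voom and sample weights (0.0264) and with library size only (0.0446). Without CAAHR replicate 34 its adjusted p was 3.89e-05, and the highest over the 6 fits was 0.178. With the slow-fibre covariate its log2 fold change was 0.30 (adjusted p = 0.516). Sln, sarcolipin, another small pump inhibitor, was at 10.5, 2.17 and 7.79 CPM in the CAAHR libraries and 3.56, 0.817 and 1.74 CPM in the GFP libraries. CAAHR replicate 34 was below GFP replicate 42, so the groups overlapped, and the log2 fold change of 1.73 ± 0.77 (SE) had an adjusted p of 0.256.

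Atp2a1, the fast-fibre SERCA pump and the most abundant of the 36 genes per length, was at 32817, 46096 and 37646 CPM in the CAAHR libraries and 40854, 40403 and 36067 CPM in the GFP libraries. The ranges overlapped, and its log2 fold change was -0.01 ± 0.16 (SE, adjusted p = 0.982). As a share of the summed level per length of Atp2a1 and Atp2a2, Atp2a2 made up 1.30, 0.263 and 0.881% in CAAHR replicates 31, 34 and 36 and 0.118, 0.146 and 0.194% in GFP replicates 42, 43 and 46. The means were 0.815% ± 0.521 and 0.153% ± 0.0384 (SD, n = 3), with p = 0.1 by a two-sided exact permutation test, again the smallest possible. The slow pump was a small share of SERCA transcripts in every library.

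The slow-fibre markers moved with Pln, Atp2a2, Casq2 and Sln across the CAAHR libraries. Myh7, the myosin heavy chain of slow fibres, was at 877, 156 and 808 CPM in the CAAHR libraries and 37.5, 52.6 and 79.5 CPM in the GFP libraries. All 8 slow-fibre markers had positive log2 fold changes (median 2.72, against 0.009 for all genes). An unadjusted p under 0.05 was reached by 7, against 23.9% of all genes, and 1, Myh7b, was called, against 7.6% of all genes. The order of the CAAHR libraries was the same for the marker sum, Myh7, Atp2a2, Casq2 and Sln, with replicate 31 highest and replicate 34 lowest, while for Pln replicate 36 was highest. Ahr and Cyp1a1 ran the other way, with replicate 34 highest and replicate 31 lowest, and a relation to them was not tested. The covariate fit cannot test the part of the slow-fibre markers in these results, since their summed level did not overlap between the groups. That part was not tested.

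**Figure D3:**
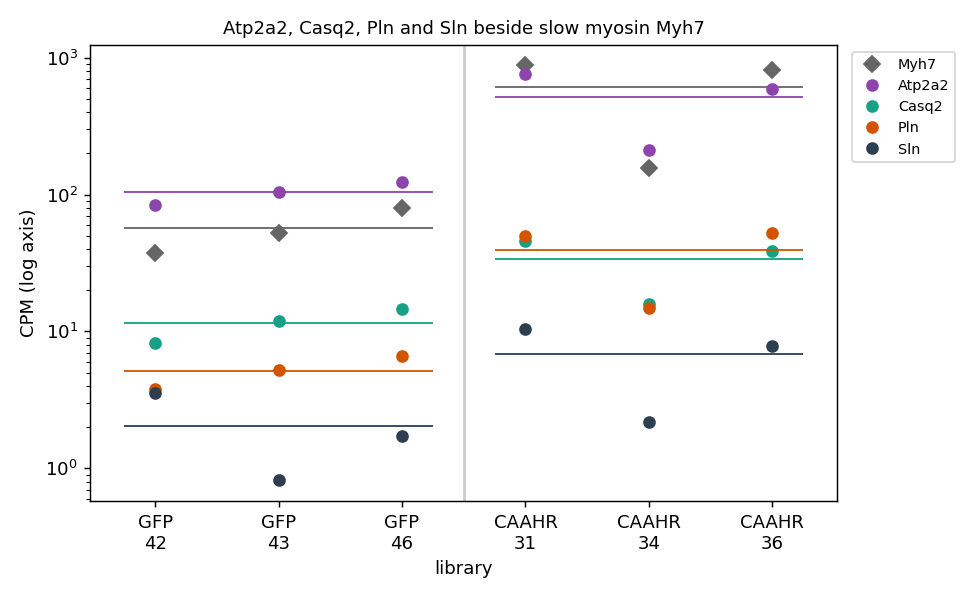
CPM on a log axis is plotted for each of the 6 libraries for Atp2a2, Casq2, Pln, Sln and the slow myosin Myh7. Horizontal lines mark the mean of each group. Within the CAAHR group every gene shown has its lowest point at replicate 34, where Myh7 was at 156 CPM against 877 and 808 CPM in the other CAAHR libraries.

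Store-operated entry refills the reticulum from outside, with Stim1 sensing the store and Orai1 forming the channel. Stim1 (ENSMUSG00000030987, chromosome 7, 102267806 to 102437319) was at 327, 312 and 301 CPM in CAAHR replicates 31, 34 and 36 and 245, 248 and 238 CPM in GFP replicates 42, 43 and 46. Replicates were close within each group and the groups were well apart. Stim1 was higher by a log2 fold change of 0.36 ± 0.10 (SE, adjusted p = 0.0486). The call was near the threshold and was lost in all 6 fits lacking 1 library, where the adjusted p ran from 0.0542 to 0.145. It was also lost with DESeq2 size factors (0.0535), upper quartile scaling (0.0968), a minimum of 10 counts in every library (0.0554) and the slow-fibre covariate (0.272). Orai1 had a log2 fold change of -0.05 ± 0.14 (SE, adjusted p = 0.873).

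Calmodulin carries the calcium signal to the CaMKII kinases, and 1 of these 6 genes was called, against 7.6% of all genes. Camk2d (ENSMUSG00000053819, chromosome 3, 126596302 to 126846326), the kinase form best known from heart, was at 46.1, 41.6 and 34.3 CPM in CAAHR replicates 31, 34 and 36 and 55.9, 57.9 and 52.1 CPM in GFP replicates 42, 43 and 46. The groups did not overlap, with CAAHR replicate 31 nearest to the GFP values. Camk2d was lower by a log2 fold change of -0.44 ± 0.12 (SE, adjusted p = 0.0484), and the call was lost without CAAHR replicate 36 or any 1 GFP library, with adjusted p-values over the 6 fits of 0.0401 to 0.149. It was lost too with library size only (0.0857), without robust estimation (0.0539) and with the slow-fibre covariate (0.431). Camk2a, Camk2b and Camk2g had log2 fold changes of -0.11 ± 0.18 (SE), 0.01 ± 0.11 (SE) and -0.05 ± 0.11 (SE), and their adjusted p-values ran from 0.765 to 0.955. Per length, Camk2d made up 1.5% ± 0.355 of the 4 Camk2 genes in CAAHR muscle and 1.89% ± 0.0540 in GFP muscle (SD, n = 3, exact permutation p = 0.2, adjusted over the 4 shares 0.667). Camk2a had the largest share of the 4 in both groups, at 54.0% and 55.7%. These are counts per gene, which do not separate the different products of 1 gene. Calm2, a calmodulin gene, was at 128, 164 and 118 CPM in the CAAHR libraries and 185, 164 and 180.0 CPM in the GFP libraries, where CAAHR replicate 34 and GFP replicate 43 were almost equal and the groups just did not overlap, with a log2 fold change of -0.37 ± 0.13 (SE, adjusted p = 0.123). Calm3, which encodes the same protein, had 0.06 ± 0.18 (SE, adjusted p = 0.893).

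Ordered by level per length in GFP muscle, the 36 genes began with Atp2a1 at 11248 ± 760.3 RPKM (SD, n = 3), Pvalb at 7487 ± 22.6 and Casq1 at 1407 ± 76.6, all well separated. A close group followed, with Hrc at 315 ± 19.1, Cacng1 at 313 ± 15.0, Jsrp1 at 302 ± 38.0, Srl at 283 ± 14.9 and Bin1 at 280.1 ± 24.1 RPKM, where each differed from its neighbour by less than the larger of their SDs. The lowest were Mtm1 at 0.974 ± 0.106 and Ryr3 at 0.0989 ± 0.0349 RPKM. The genes with the largest log2 fold changes were all low in this order, since Atp2a2, Casq2, Pln, Sln, Cacna2d4 and Ryr3 were at or below 17.0 ± 3.14 RPKM.

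The CAAHR libraries were the more variable group for these genes. The ratio of the highest to the lowest library was larger in CAAHR than in GFP for 29 of the 36 genes, with medians of 1.31 and 1.16. It was over 2 for Casq2, Atp2a2, Sln and Pln in CAAHR (2.90, 3.55, 4.83 and 3.56) and for Sln alone in GFP (4.36). CAAHR replicate 34 was the highest CAAHR library for 24 of the 36 genes and the lowest for 5, so it stood apart in both directions.

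Outside the 36 genes, 93 further calcium-handling genes were listed by role, 91 were found and 85 were tested. Of these, 8 were called (9.41%, against 7.6% of all genes), 2 higher and 6 lower, and the median log2 fold change was -0.013. Groups did not overlap for 24 genes (28.2%, against 29.9% of all genes), so the wider set lay near the background. Higher were Dnm2, a dynamin that binds the tubule protein of Bin1 (log2 fold change 0.46 ± 0.09 SE, adjusted p = 0.0119), and Saraf, which dampens store-operated entry (0.63 ± 0.12 SE, adjusted p = 0.0147). Saraf was at 253, 325 and 287 CPM in the CAAHR libraries and 169, 188 and 200.2 CPM in the GFP libraries, and Dnm2 at 57.1, 59.2 and 63.1 CPM in the CAAHR libraries and 42.8, 43 and 44.6 CPM in the GFP libraries.

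Lower among them were the small GTP-binding proteins Gem and Rrad, which restrain voltage-gated calcium channels. Gem was at 2.13, 2.31 and 1.30 CPM in the CAAHR libraries and 5.94, 5.96 and 6.40 CPM in the GFP libraries (log2 fold change -1.68 ± 0.21 SE, adjusted p = 0.00202). Rrad was at 4.43, 2.75 and 3.56 CPM in the CAAHR libraries and 18.2, 6.89 and 9.78 CPM in the GFP libraries (-1.70 ± 0.38 SE, adjusted p = 0.0434). The groups did not overlap for either gene, but the GFP values of Rrad were widely spread. Cacng7, another gamma subunit gene, had -0.56 ± 0.09 (SE, adjusted p = 0.00609), and Itpr1, an inositol trisphosphate receptor, -0.84 ± 0.18 (SE, adjusted p = 0.0312). For Mrln, the micropeptide myoregulin that inhibits the fast pump, the log2 fold change was -0.50 ± 0.12 (SE, adjusted p = 0.0303). Nfatc2, a transcription factor switched on by calcineurin, had -1.24 ± 0.22 (SE, adjusted p = 0.0141). Nfatc2 is also used by immune cells, whose summed markers, given beside Cacna2d4, were lower in CAAHR muscle. All 8 of these genes lost their call with the slow-fibre covariate, and Rrad lost it also with no filter (adjusted p = 0.0532) and with voom (0.104). Gem and Cacng7 were called in each fit that left out 1 library. The call was lost without CAAHR replicate 36 or GFP replicate 43 for Dnm2, and without CAAHR replicate 36, GFP replicate 42 or GFP replicate 43 for Saraf. For Nfatc2 it was lost without CAAHR replicates 31 or 36 or GFP replicate 46, and for Itpr1 without these or GFP replicate 42. Rrad lost its call without any 1 CAAHR library or GFP replicate 46, and Mrln kept its call only without CAAHR replicate 34.

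**Figure D4:**
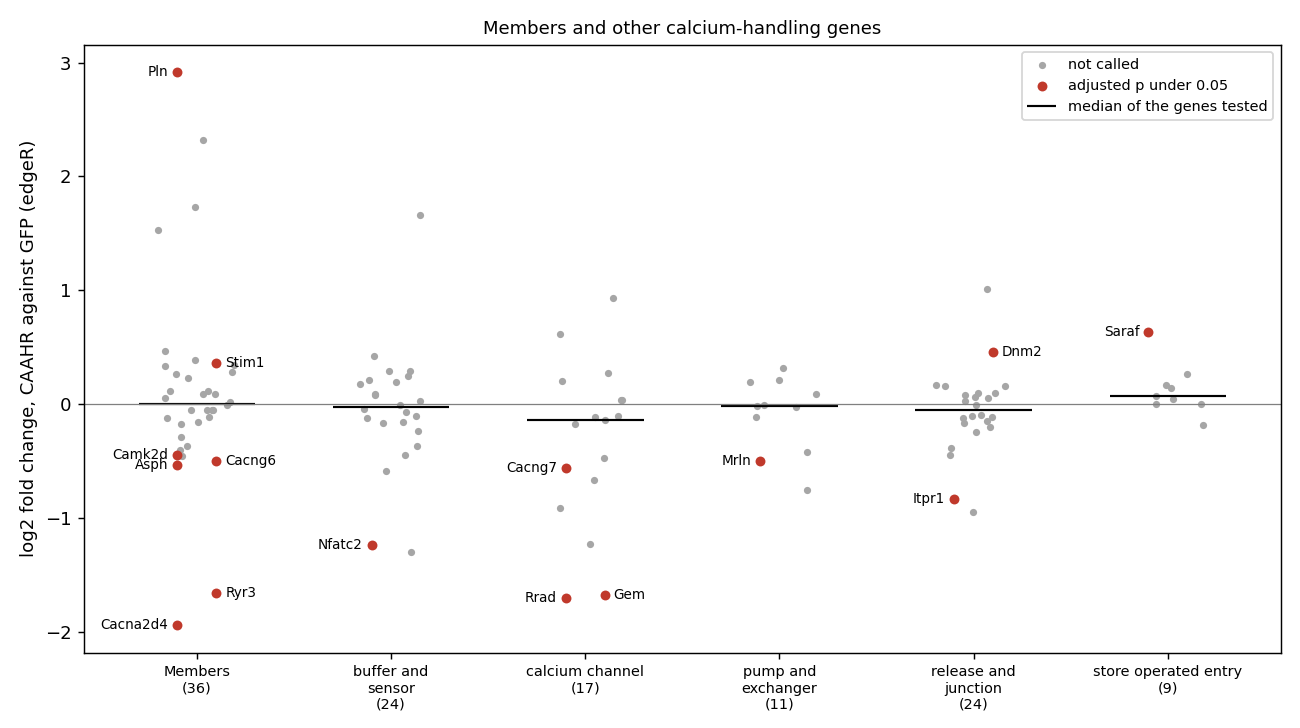
Each point is the edgeR log2 fold change of 1 gene, CAAHR against GFP, for the 36 calcium genes in 1 column and for the 85 further calcium-handling genes tested in columns by role, with the number tested in brackets. Called genes are red and named, and a short line marks the median of each column, which lies between -0.143 and 0.073 in all of them, while Pln lies at 2.92 and Cacna2d4 at -1.94.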

How the data were processed

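Messenger RNA of 6 gastrocnemius muscles was sequenced, 3 per group, and libraries were assigned to groups by their titles. According to the methods, the authors selected poly(A) RNA, sequenced paired ends, trimmed reads with Trimmomatic 0.36, aligned them to GRCm38 with STAR 2.5.2b and summed uniquely assigned exon reads by gene with featureCounts. The deposited values were raw counts per gene, not normalised and not pooled. Counting was by strand for strand-specific libraries, but whether these were strand-specific is not given in the sources used here. All columns were used (the number left out was 0), and 174 rows without a gene symbol (0.0154% of counts) were kept in library sizes.

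The test was run in edgeR 4.0.16 (R 4.3.3): filterByExpr, TMM scaling, and the robust quasi-likelihood F test, with Benjamini-Hochberg adjustment over all 15847 genes at 0.05. SE was taken from the F statistic. RPKM is scaled CPM per kilobase of exon union in GENCODE M21 (GRCm38), which matched 49056 genes and gave all positions. Shares were compared with two-sided exact permutation tests, whose smallest p is 0.1, so no share could pass 0.05. Within groups every pair of libraries differed beyond sampling noise (lowest ratio of chi-square to its degrees of freedom 21.6). A count of 3 or fewer was treated as the floor, which covers counting error only.

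Alternatives were DESeq2 size factors, upper quartile or library-size scaling, other filters, DESeq2 1.42.0 (the tool of the authors), limma 3.58.1 voom with sample weights, non-robust edgeR, a slow-fibre marker covariate and leaving out each library. Only the main edgeR fit was tested on simulated counts, with planted changes larger than most of those called here. The shares, the alternatives and the promoter steps were not simulated. By the rule for naming genes, every listed gene is given, with full statistics where the adjusted p was under 0.05 or the absolute log2 fold change over 1. Of the further calcium genes, those with an adjusted p under 0.05 are named, at most 10. Further calcium genes named outside this rule are under Other observations. The genes, lists and settings were chosen with earlier results of these data known. Arln and Erln were not matched by symbol.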

Additional observations from a re-analysis of the deposited data

How the results depend on the processing

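No paired analysis was possible because no replicate number occurred in both groups. With no filter on low counts, 2470 genes in all and 11 of the 36 calcium genes were called, and 12 of the further calcium genes were. DESeq2 called 1919 and 11. With the slow-fibre covariate, 427 genes in all were called, 2 of the 36 (Cacna2d4, called before, and Stac3, not called before) and 1 of the further genes, which was none of the 8 called before, and it moved the median log2 fold change of the 36 to 0.216. Leaving out 1 library gave 530 to 1727 calls in all, 2 to 12 of the 36, 2 to 10 of the further genes, and a median of -0.123 to 0.037. The difference in share (CAAHR minus GFP, percentage points) then ran from 0.42 to 0.938 for Atp2a2, 0.578 to 1.199 for Casq2, -4.07 to -0.166 for Camk2a, 0.46 to 3.08 for Camk2b, -0.599 to -0.27 for Camk2d and -0.121 to 1.27 for Camk2g. Without division by length, the difference for Atp2a2 was 1.15, for Casq2 1.16 and for Camk2d -1.12. The cause was not tested.

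Of 660 values of single genes under alternatives, 527 kept direction and side of the threshold, 69 lost a call, 23 gained one and 41 changed sign. None of the 7 called genes changed sign. Sign changes by log2 fold change were as follows. Upper quartile scaling gave Calm3 -0.016 and Camk2b -0.058. Library size alone gave Trdn 0.03, Sypl2 0.024, Atp2a1 0.068, Orai1 0.032 and Camk2g 0.026. Without a filter Atp2a1 was at 0.005, and voom gave Jph1 -0.008, Orai1 0.013 and Calm3 -0.05. The slow-fibre covariate gave S100a1 -0.12, Trdn 0.21, Sypl2 0.33, Casq1 0.12, Casq2 -0.27, Srl 0.076, Pvalb 0.22, Atp2a1 0.44, Sln -0.22, Calm2 0.033, Camk2a 0.56 and Camk2g 0.24. Leaving out 1 library gave Mtm1 -0.003 to 0.18, Atp2a1 -0.16 to 0.094, Orai1 -0.15 to 0.10, Camk2a -0.35 to 0.011, Cacnb1 -0.008 to 0.15, Jph1 -0.053 to 0.17, Calm3 -0.18 to 0.21, Camk2b -0.048 to 0.066, Trdn -0.15 to 0.042 and Sypl2 -0.19 to 0.013. With 3 libraries per group, small differences could not be told from the spread.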

Other observations

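Ratios between related genes, per length, were chosen after their values were seen and are given without a test. The ratio of Cacng1 to Cacng6 was 5.54, 8.03 and 8.70 in the CAAHR libraries and 3.99, 3.99 and 3.42 in the GFP libraries. For Cacna2d1 to Cacna2d4 it was 89.1, 94.0 and 91.0 in the CAAHR libraries and 24.8, 19.9 and 15.7 in the GFP libraries. For Ryr1 to Ryr3 it was 6660.2, 9936 and 7412 in the CAAHR libraries and 1724, 3127 and 2531 in the GFP libraries. In all 3 pairs every CAAHR library lay above every GFP library, and CAAHR replicate 34 was the lowest CAAHR library in none of them. The ratio of Pln to Atp2a2 was 0.146, 0.153 and 0.198 in the CAAHR libraries and 0.0991, 0.110 and 0.118 in the GFP libraries, so it differed far less between the CAAHR libraries than the level of either gene did.

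Rcan1, a calcineurin regulator, is named outside the rule for naming genes. It was at 329, 99.9 and 197 CPM in the CAAHR libraries and 55.9, 74.0 and 67.6 CPM in the GFP libraries. Its log2 fold change was 1.66 ± 0.44 (SE) with an adjusted p of 0.0909, so it was not called, and CAAHR replicate 34 was again the lowest of its group while above every GFP library. Of the other Rcan and Nfatc genes listed, Nfatc2 was called lower. Rcan2, Nfatc1, Nfatc3 and Nfatc4 were not called, with log2 fold changes of 0.42, 0.195, -0.013 and -0.119.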
